A study of Mus musculus with 8 samples.

Results

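The genes described here code for the heat shock proteins and chaperones of mouse CD8 T cells: the Hsp90, Hsp70, Hsp110 and small heat shock families, the chaperonins of mitochondria and cytosol, and the J-domain (DnaJ) co-chaperones. They were taken by symbol (Hsp followed by a digit or by a letter and a digit, Dnaj, Tcp1 and Cct2 to Cct8), which gave 66 of the 13204 genes in the table. OT-I cells carry a transgenic receptor for a peptide of ovalbumin. Per the labels, 1000000 of them were transferred 24 hours before a graft of skin expressing ovalbumin, and on day 14 the spleens of 3 mice were pooled for each of 4 pools. From each pool 1000 CD44hi, Thy1.1+, CD8+ cells with FcgRIIB, the inhibitory receptor for IgG, and 1000 without it were sorted. This gave 4 positive and 4 negative libraries, paired by pool. All mice received OT-I cells and a graft, so no ungrafted or naive control is part of the comparison, and the genotype, sex and age of the recipients are not given in the sources used here.

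Chaperones bind unfolded protein chains and release them in cycles of ATP binding and hydrolysis. Hsp70 proteins take up short hydrophobic stretches, J-domain proteins deliver the substrate and trigger ATP hydrolysis, Hsp110 proteins exchange the nucleotide, and Hsp90 and the chaperonins act on later folding steps. The transcription factor HSF1 drives the inducible genes through heat shock elements in their promoters. A separate response to unfolded protein in the endoplasmic reticulum (ER) acts through ER stress response elements on the genes of the ER chaperones.

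Promoter sequences of the members with RefSeq entries (assembly GRCm38, whereas the expression table was made on mm9) show these elements, and 54 of the 66 members matched the table of windows from 250 bases before to 50 bases after the start site. The ER stress response element (CCAAT, then 9 bases of any kind, then CCACG, on either strand) was found in 3 member genes, Hspa5, Hsp90b1 and Dnajc3. By window it was in 3 of the 72 windows of members, beside 0.119% of all 32851 promoter windows. The heat shock element searched (GAA, TTC and GAA in turn, with 2 bases of any kind between each, on either strand) was found in 4 member genes, Hspd1, Hspe1, Hsph1 and Dnajb6. It was in 6 of the 72 member windows, beside 0.603% of all windows. Its first 8 letters alone (GAANNTTC), which read the same on both strands and are part of the longer element, were in 11 member genes. They were in 13 of the 72 member windows, beside 7.86% of all windows. A match describes letters in these windows and is not a measured binding site. The stretches below are shown because the results turn on these genes or, for the chaperonin pair, on 1 shared promoter. Capitals mark the 8 letters alone in Hspa1a, Hspa1b and Dnaja4, whose windows did not hold the longer heat shock element. They mark the longer element in Hspe1 with Hspd1 and the ER stress response element in Hspa5 and Hsp90b1. The stretch of Dnaja4 shows 1 of the 2 matches in its window.
Hspa1a (chr17:34972232-34972291, minus strand): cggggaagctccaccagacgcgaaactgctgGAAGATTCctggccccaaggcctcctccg
Hspa1b (chr17:34959314-34959373, minus strand): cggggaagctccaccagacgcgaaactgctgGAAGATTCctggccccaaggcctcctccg
Hspa5 (chr2:34772020-34772049, plus strand): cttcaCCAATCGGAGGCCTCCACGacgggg
Hsp90b1 (chr10:86705517-86705666, minus strand): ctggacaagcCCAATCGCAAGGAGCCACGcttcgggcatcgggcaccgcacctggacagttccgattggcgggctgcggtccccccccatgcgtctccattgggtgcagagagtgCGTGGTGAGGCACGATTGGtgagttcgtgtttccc
Hspe1 with Hspd1 (chr1:55088053-55088082, plus strand): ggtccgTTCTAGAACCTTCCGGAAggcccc
Dnaja4 (chr9:54699458-54699487, plus strand): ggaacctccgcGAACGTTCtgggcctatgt
The 250 bases before the start sites of Hspa1a and Hspa1b differ at 3 positions, and the stretches shown are identical. Hsp90b1 carries 2 ER stress response elements, 1 on each strand, and Hspa5 carries 1. Hspe1 and the nearer start site of Hspd1 face away from each other over 216 bases, and the element shown, which holds 2 overlapping matches, lies between them. Start sites here are those of RefSeq. In another annotation (GENCODE) exons of Hspd1 and Hspa5 overlap the stretches shown for Hspe1 and Hspa5. There, an exon of Dnajb6 also overlaps the stretch around its heat shock element.

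Depth, recovered from the whole-read steps of the RPKM values (reads scaled to exon length and library depth), was 3060000 to 22020000 reads per library, and the libraries of pools 1 and 2 were deeper than those of pools 3 and 4. The receptor gene Fcgr2b lay between 29.6 and 69.9 RPKM in positive and between 1.82 and 4.82 RPKM in negative libraries, in the direction of the sort. T cell genes were present in both groups, and none of 18 core T cell genes was listed at 0 in any library. Summed over that list the level was 2290 to 4902 RPKM in positive and 5995 to 9618 RPKM in negative libraries. All 18 had a log2 fold change below 0. Limma called 0 of them lower without the block and 10 with it, beside 0.268% and 3.85% of all genes. Markers of dendritic cells and macrophages went the other way. Dendritic cell markers (16 of 16 with a log2 fold change above 0) summed to 3433 to 8799.8 RPKM in positive and 287 to 839 RPKM in negative libraries. Most of this sum was Cst3. It was at 2571, 2874, 7283 and 8165 RPKM in positive and 201, 454, 269 and 751 RPKM in negative libraries of pools 1 to 4. Macrophage markers (18 of 19) summed to 3836 to 5607 and 881 to 2203 RPKM. Without the block 14 of the dendritic cell and 11 of the macrophage markers were called higher, beside 3.03% of all genes. Basophil and mast cell markers (8 of 8) summed to 64.2 to 1287 and 8.89 to 43.4 RPKM, B lineage markers (5 of 12, with a median of -0.14) to 549 to 1255 and 139 to 972 RPKM, and erythroid markers (6 of 6) to 2767 to 14576 and 2272 to 5219 RPKM. Jchain alone carried the B lineage sum: without it the sum was 174, 374, 187 and 383 RPKM in positive and 139, 540.5, 261 and 183 RPKM in negative libraries of pools 1 to 4, lower in the positive library of pools 2 and 3. Of the defining genes, Clec10a of the dendritic cell list and Fcer1a and Mcpt8 of the basophil list were listed at 0 in at least 1 negative library and no marker was at 0 in a positive one. Immediate early genes, which mark acute stress or stimulation, summed to 2856 to 4418 and 1448 to 2973 RPKM. In these bulk libraries fewer cells of a type and less RNA per cell cannot be told apart, and the part these shifts have in the results below was not tested.

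Few chaperone transcripts differed beyond the spread between libraries. With all libraries and the deposited scaling, 4 were called with the pool in the model and 0 without it: the stress-inducible Hsp70 genes Hspa1a and Hspa1b were higher in FcgRIIB-positive cells and the J-domain genes Dnajc9 and Dnaja4 lower. With core T cell genes as the scale and no pool in the model, limma called 3 members higher, Hspa1a, Hspa1b and Hsp90b1. Differences are log2 fold changes on the RPKM + 1 scale, positive minus negative, and a gene is called where limma's Benjamini-Hochberg adjusted p over all 11946 genes tested is under 0.05. Without the pool in the model limma called 0 of the 65 members tested in either direction, against 3.03% of all genes higher and 0.268% lower. Before adjustment, p was under 0.05 for 2 members higher and 3 lower, beside 7.48% and 4.67% of all genes. With the pool as replicate block limma called 2 members higher (3.08%) and 2 lower (3.08%), against 7.22% and 3.85% of all genes. The share of members called was therefore near or below that of all genes. The member not tested, Hspg2, reached 1 RPKM in 3 libraries only, under the minimum of 4. It codes for the basement membrane proteoglycan perlecan and matched by symbol only.

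The median log2 fold change of the 65 members was -0.25, beside -0.11 for all genes tested, and 49 members (75.4%) lay below 0, beside 61.2% of all genes. In 19 members (29.2%) the positive library was the lower one in all 4 pools, beside 19.8% of all genes, and in 5 (7.69%) it was the higher one, beside 10.3%. With core T cell genes as the scale, the median over all genes shifted by 1.00, to 0.89. The member median then became 0.74 and all 65 members lay above 0. Every log2 fold change below 0 given for a member over all 4 pools therefore changes sign under that scaling, which was not computed pool by pool, while rescaling by median ratios or quantiles left the member median at -0.22 and -0.21.

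**Figure D1:**
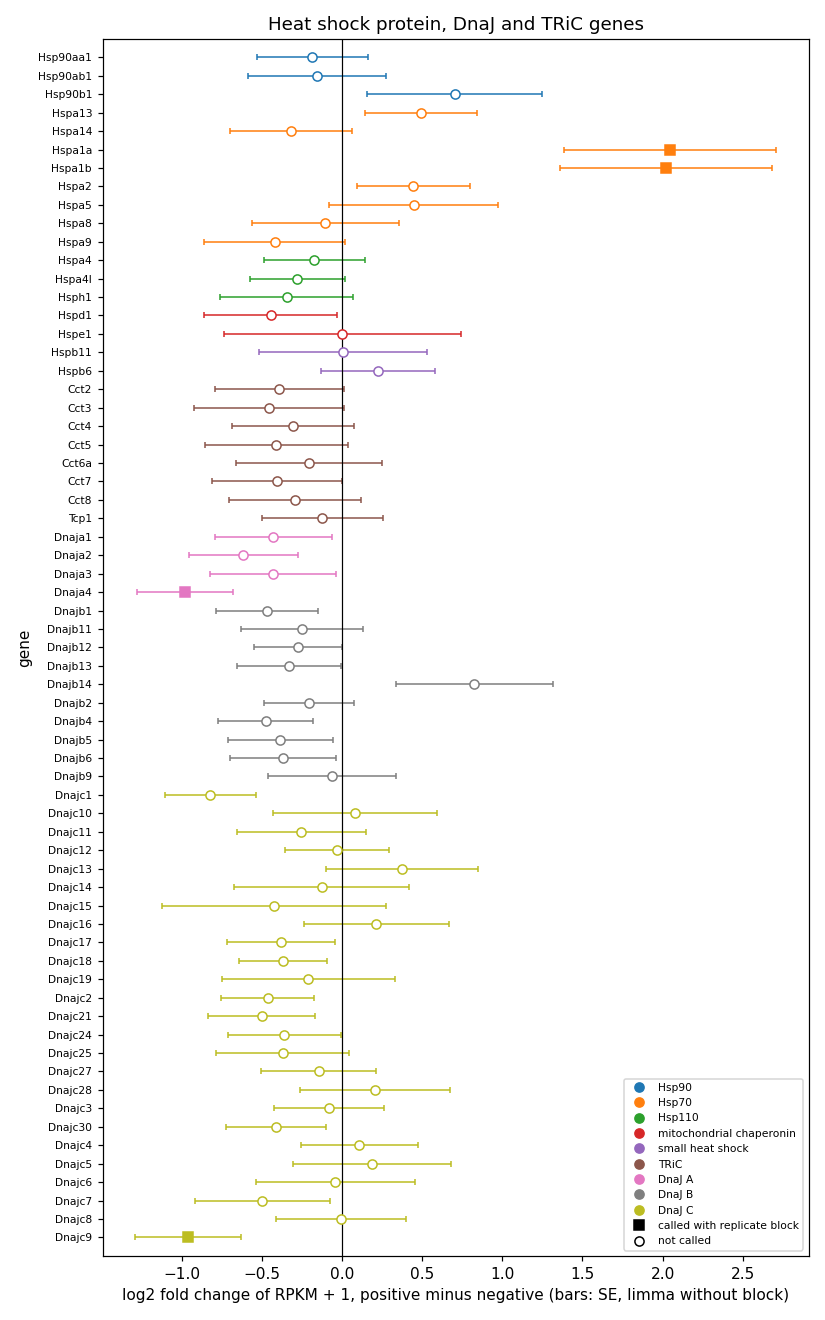
Log2 fold change of RPKM + 1 (positive minus negative) for the 65 tested members, one row per gene, coloured by family, with bars for the SE of limma without the replicate block (n = 4 libraries per group). Filled squares mark the 4 genes called with the replicate block, with Hspa1a and Hspa1b at 2.05 and 2.02 and Dnaja4 and Dnajc9 at -0.98 and -0.96.

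Hspa1a and Hspa1b code for the inducible Hsp70, the cytosolic form that is low in resting cells and made on stress. Hspa1a was at 0.936, 0.506, 1.46 and 5.14 RPKM in the negative libraries of pools 1 to 4 and at 1.78, 28.04, 7.69 and 17.4 RPKM in the positive libraries of the same pools. Hspa1b ran beside it, at 1.35, 0.65, 1.79 and 5.71 RPKM in negative and 1.81, 28.2, 10.3 and 20.3 RPKM in positive libraries. Within each pool the positive library was the higher one, by far the most in pool 2, and the groups overlapped because negative library 4 stood above positive library 1. These levels rest on 24 to 47 reads of Hspa1a per negative library and on 82, 1727, 140 and 258 reads per positive library of pools 1 to 4. Among negative libraries Hspa1a stayed under 1 RPKM in pools 1 and 2, so it entered the test mainly through the positive libraries. Hspa1b was under 1 RPKM in negative library 2 only.

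The log2 fold change was 2.05 for Hspa1a (SE 0.66, limma adjusted p = 0.16, and 0.00137 with the replicate block) and 2.02 for Hspa1b (SE 0.66, limma adjusted p = 0.167, and 0.00149 with the block). Both kept the call of the blocked limma fit when any 1 pool was left out, with log2 fold changes of 1.31 and 1.32 without pool 2. Without the block, both were called when positive library 1 was left out (limma adjusted p = 0.0244 and 0.0155) and with core T cell scaling (0.03 and 0.0301). Within pools 1 and 2 the log2 fold changes were 2.40 and 2.20 (limma adjusted p = 0.0253 and 0.045), and within pools 3 and 4 1.70 and 1.85. Of the Hspa1a transcript, 58.8% of all 50-base stretches occur unchanged in that of Hspa1b, so how reads were split between the genes is uncertain. In the same libraries 4 of 20 immediate early genes were called higher without the block, beside 3.03% of all genes, and 9 with it, beside 7.22%. Of the 20, 16 lay above 0 and 4 below, among the latter Junb, which was lower in all 4 pools (-0.59). Atf3, with the largest log2 fold change of the list (3.91), was at 139, 228, 159 and 142 RPKM in positive and 1.88, 31.4, 6.36 and 19.8 RPKM in negative libraries. Among positive libraries, Atf3 and Hspa1a were both highest in library 2 and both lowest in library 1. The level of Atf3 in library 1 was close to that in libraries 3 and 4. The part of immediate early expression in the Hspa1 values was not tested.

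**Figure D2:**
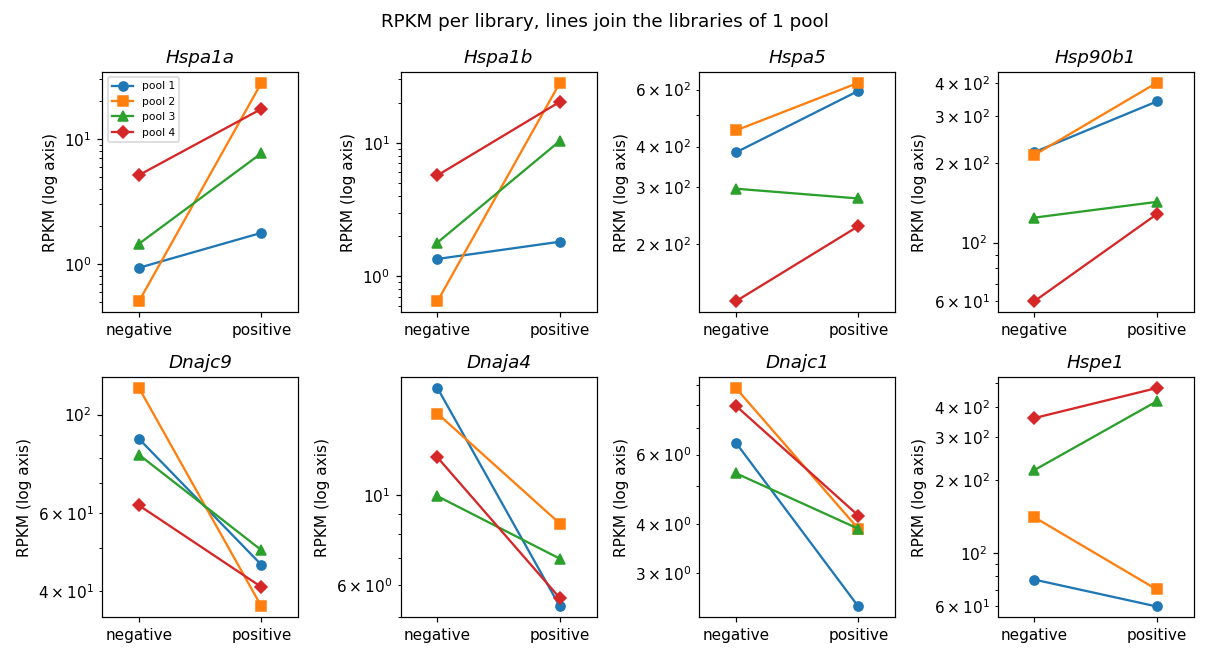
RPKM (log axes, each panel with its own range) of 8 members in negative and positive libraries, with lines joining the libraries of 1 pool. Hspa1a and Hspa1b run upward in all 4 pools, Dnajc9, Dnaja4 and Dnajc1 run downward in all 4, and Hspe1 runs down in pools 1 and 2 and up in pools 3 and 4.

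The constitutive Hsp70, Hspa8 (Hsc70), which serves the cytosol of unstressed cells, was not called. Its level was 381, 460.1, 394 and 209 RPKM in negative and 495, 421, 269 and 193 RPKM in positive libraries of pools 1 to 4, higher in pool 1 and lower in the other 3 (log2 fold change -0.11, SE 0.46). The ratio of Hspa1a to Hspa8 was highest in positive library 4, at 0.0900, and lowest in negative library 2, at 0.0011. Hspa2, a further cytosolic Hsp70 best known from the testis, stayed between 0.766 and 2.92 RPKM and was higher in the positive library of all 4 pools (0.44, SE 0.35) without a call. Hspa14, a ribosome-associated Hsp70, had a log2 fold change of -0.32, and the mitochondrial Hsp70 gene Hspa9 (mortalin), which draws proteins through the inner membrane, one of -0.42 and a lower value in all 4 pools.

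The 2 large ER chaperones had log2 fold changes above 0. Hspa5 codes for BiP, the Hsp70 of the ER and its sensor of unfolded protein. It was at 384, 449, 296 and 133 RPKM in the negative libraries of pools 1 to 4 and at 595, 630.0, 276 and 227 RPKM in the positive ones, higher in 3 pools and slightly lower in pool 3, with overlapping groups. Hsp90b1 codes for Grp94, the Hsp90 of the ER, and was at 219.9, 214, 124 and 60.0 RPKM in negative and 342, 402, 143 and 128 RPKM in positive libraries. It was higher in all 4 pools, and its groups overlapped too, since pools 1 and 2 lay above pools 3 and 4 in both groups. Neither passed the test: the log2 fold change was 0.45 for Hspa5 (SE 0.53, limma adjusted p = 0.922, and 0.404 with the block) and 0.70 for Hsp90b1 (SE 0.55, limma adjusted p = 0.768, and 0.093 with the block). Hsp90b1 is described outside the naming rule, after its values were seen.

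Set against the cytosolic partner within each library, which removes library scaling, the ratio of Hspa5 to Hspa8 was 1.01, 0.975, 0.751 and 0.634 in negative and 1.20, 1.49, 1.03 and 1.18 in positive libraries of pools 1 to 4. All 4 positive libraries thus lay above all 4 negative ones. The ratio of Hsp90b1 to Hsp90ab1 was 0.511, 0.423, 0.325 and 0.254 in negative and 0.742, 0.961, 0.560 and 0.491 in positive libraries, higher in each pool, with positive library 4 below negative library 1. These ratios were formed after the values were seen and were not tested. Secretory plasma cells are rich in ER chaperones, and the plasma cell genes Jchain and Mzb1 were higher in the positive library of every pool as well: Jchain, the joining chain of antibodies, was at 0.689, 431, 1.75 and 2.80 RPKM in negative and 375, 880.2, 478 and 264 RPKM in positive libraries, and Mzb1, an ER protein of antibody-forming cells, at 1.66, 35.7, 14.4 and 20.9 and 25.6, 74.5, 36.6 and 108 RPKM. Their part in the ER ratios was not tested.

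Other ER members did not share 1 direction. Hspa13 (Stch), a microsomal Hsp70 without a substrate domain, was at 3.31, 2.78, 2.42 and 2.45 RPKM in negative and 5.30, 7.95, 2.69 and 2.61 RPKM in positive libraries and was higher in all 4 pools. Dnajc3 (p58IPK), the third gene with an ER stress response element, had a log2 fold change of -0.08, and the BiP co-chaperones Dnajb9, Dnajb11 and Dnajc10 had -0.06, -0.25 and 0.08. Dnajc1, a membrane-bound ER J-protein, was at 6.43, 8.86, 5.38 and 7.98 RPKM in negative and 2.46, 3.88, 3.88 and 4.20 RPKM in positive libraries. No positive library reached the lowest negative one (-0.82, SE 0.29, limma adjusted p = 0.207, and 0.0677 with the block). Dnajb14, an ER membrane J-protein, had the largest positive log2 fold change after the Hspa1 pair (0.83, SE 0.49, limma adjusted p = 0.61), and was at 0.395, 0.465, 0.857 and 4.19 RPKM in negative and 1.16, 4.42, 2.39 and 3.90 RPKM in positive libraries. It was higher in pools 1 to 3 and not in pool 4. With all pools the blocked limma fit did not call Dnajb14 (adjusted p = 0.144). That fit called it only once pool 4, the pool that went the other way, was left out (adjusted p = 0.00389). The omission was chosen after seeing the data. Among negative libraries Dnajb14 reached 1 RPKM in library 4 only, so it entered the test mainly through the positive libraries.

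**Figure D3:**
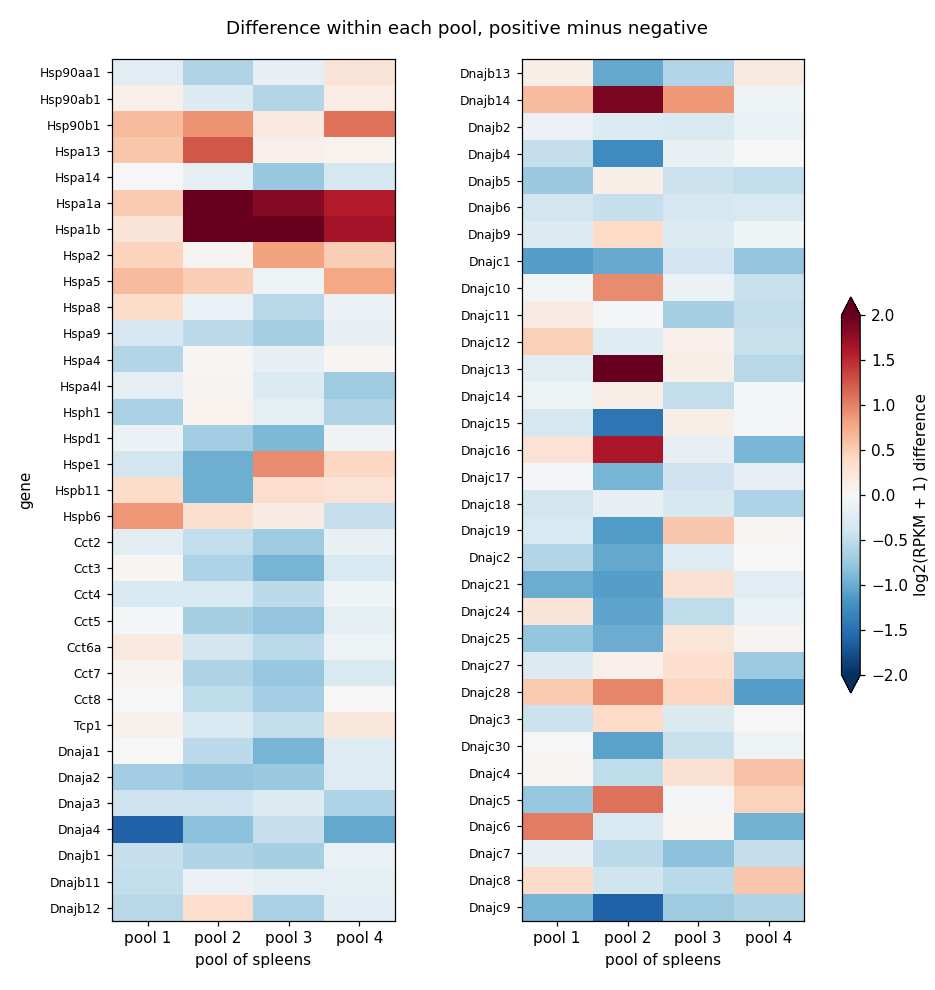
Difference in log2(RPKM + 1), positive minus negative, of each tested member (rows, grouped by family) in each of the 4 pools (columns), with red for higher in positive, blue for lower, and the colour scale ending at 2 in either direction. Hspa1a, Hspa1b, Hspa2, Hspa13 and Hsp90b1 are red in all 4 pools, and the TRiC genes are blue in pools 2 and 3 and pale in pools 1 and 4.

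The cytosolic Hsp90 genes were abundant and not called. Hsp90ab1, the constitutive form that matures kinases and receptors, was at 429.9, 507, 382 and 236 RPKM in negative and 460.2, 418, 255 and 261 RPKM in positive libraries of pools 1 to 4, higher in pools 1 and 4 and lower in pools 2 and 3. Hsp90aa1, the inducible form, was at 108, 139, 146 and 112 and 92.3, 91.0, 129.9 and 135 RPKM. Their log2 fold changes were -0.16 (SE 0.43) and -0.18 (SE 0.35). The difference between inducible Hsp90 and inducible Hsp70 was not tested.

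Hsp110 proteins release ADP from Hsp70, and all 3 genes lay below 0 without a call. Hsph1, the inducible one, was at 32.5, 20.2, 12.8 and 12.1 RPKM in negative and 20.5, 21.2, 11.05 and 7.65 RPKM in positive libraries (-0.34, SE 0.42), lower in 3 pools. Hspa4, the most abundant on average, was at 21.1 ± 4.69 RPKM in negative and 18.7 ± 5.27 RPKM in positive libraries (SD, n = 4 each; -0.17). Hspa4l stayed between 2.28 and 4.39 RPKM.

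The mitochondrial chaperonin is built of Hsp60, from Hspd1, and its lid Hsp10, from Hspe1, and these genes, which share the promoter shown above, did not run in parallel. Hspd1 was at 104, 137, 108 and 49.4 RPKM in negative and 95.0, 84.3, 57.4 and 47.1 RPKM in positive libraries of pools 1 to 4, lower in the positive library of each pool (-0.45, SE 0.41). Hspe1 was at 77.5, 140.1, 219 and 359.5 RPKM in negative and 60.0, 70.5, 422 and 478 RPKM in positive libraries, lower in pools 1 and 2 and higher in pools 3 and 4, with a log2 fold change of 0.0019 (SE 0.74). The ratio of Hspe1 to Hspd1 lay between 0.631 and 1.02 in the 4 libraries of pools 1 and 2 and between 2.03 and 10.2 in those of pools 3 and 4. Hspe1 is short, with 768 bases of exon against 2332 for Hspd1, and RefSeq lists 7 pseudogenes of it, so its reads may be shared.

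Exon length went with the difference between the pools across all members. The 2 members under 1000 bases, Dnajc15 and Hspe1, were higher in pools 3 and 4 than in pools 1 and 2 by 1.89 and 2.10 on the log2 scale, beside a median of 1.52 for all 648 tested genes of that length. Members of 2500 to 5000 bases (22 genes) had a median of -0.67 and those over 5000 bases (21 genes) of -0.42, beside -0.18 and -0.21 for all genes. Across the 65 members the Spearman correlation of length with this shift was -0.36, and across all 11946 genes tested -0.27, with the same 8 libraries behind every point and genes not being independent. Pools 3 and 4 were also the shallower ones, so length, depth and pool cannot be told apart here.

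**Figure D4:**
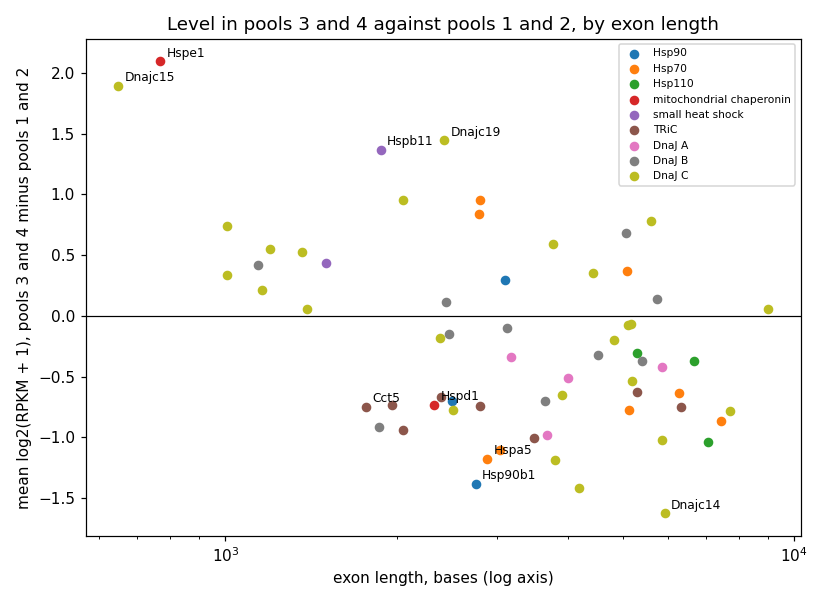
Mean log2(RPKM + 1) of the 4 libraries of pools 3 and 4 minus that of the 4 libraries of pools 1 and 2, for each tested member against its exon length in bases (log axis), coloured by family. Dnajc15 and Hspe1, the shortest, lie highest at 1.89 and 2.10, and Dnajc14 lies lowest at -1.62.

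TRiC, the cytosolic chaperonin, folds actin and tubulin and is a double ring with 8 different subunits, whose 3 most abundant genes kept their order. Cct5 was the highest, Cct8 next and Cct6a after it in all 8 libraries, and Tcp1 was the lowest in all but positive library 4, where Cct7 was. Cct5 was at 228, 305, 243 and 110.2 RPKM in negative and 225, 192, 142 and 97.2 RPKM in positive libraries of pools 1 to 4. The highest subunit stood 4.49 to 4.95 times above the lowest in negative and 3.41 to 4.28 times in positive libraries. All 8 subunits had log2 fold changes below 0, from -0.45 (Cct3) to -0.12 (Tcp1), with a median of -0.35 (7 of 8 below 0 after quantile normalization, none with core T cell scaling), and none was called by limma with or without the block (smallest unadjusted p above 0.05 in both fits). By pool the result was uneven. In pools 2 and 3 all 8 were lower in the positive library, with medians of -0.50 and -0.69, whereas in pool 4 7 of 8 were lower with a median of -0.13, and in pool 1 3 of 8 with a median of 0.02.

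**Figure D5:**
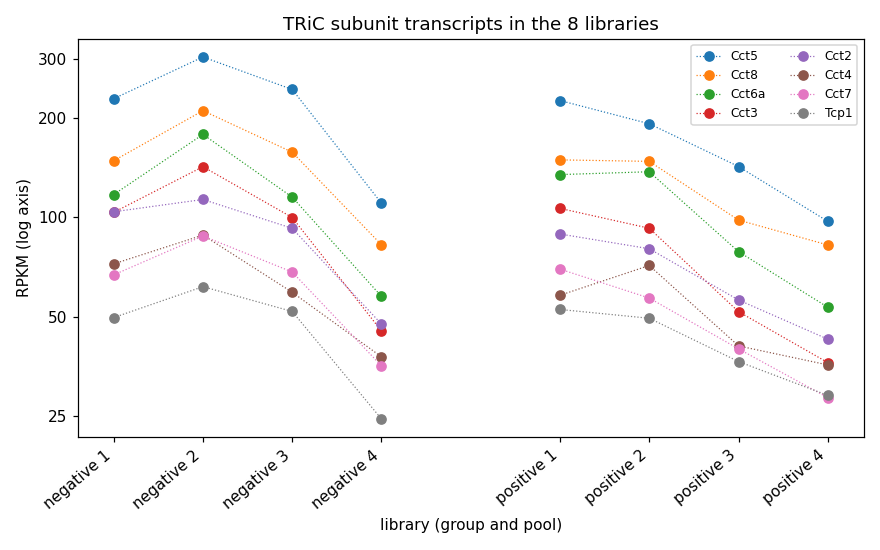
RPKM (log axis) of the 8 TRiC subunit genes in each library, negative on the left and positive on the right, with dotted lines joining the libraries of a group for 1 gene (the order of pools carries no meaning). Cct5 lies on top in all 8 libraries, from 97.2 to 305 RPKM, and positive library 4 is the lowest for 7 of the 8 subunits.

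Class A J-proteins, the closest relatives of bacterial DnaJ, had all 4 members below 0, with a median of -0.52. Dnaja4 was called with the block. It was at 18.3, 15.9, 9.93 and 12.4 RPKM in negative and 5.32, 8.502, 6.97 and 5.58 RPKM in positive libraries of pools 1 to 4, and every positive library lay below every negative one. Its difference on the log2 scale was -0.98 (SE 0.30, limma adjusted p = 0.127, and 0.0182 with the block), and the blocked call ended without pool 1 (adjusted p = 0.150). Dnaja1, the most abundant of the class, was at 100.4, 116, 124 and 65.5 and 101, 80.1, 64.8 and 54.6 RPKM (-0.43, SE 0.37), nearly equal in pool 1 and lower in the others. Dnaja2 (-0.62) and the mitochondrial Dnaja3 (-0.43) were lower in all 4 pools without a call.

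Dnajc9, a co-chaperone of histones H3 and H4 that is known from dividing cells, was the other member called lower with the block. Its level was 88.2, 115, 81.2 and 62.4 RPKM in the negative and 45.8, 36.9, 49.4 and 40.8 RPKM in the positive libraries of pools 1 to 4. No positive library reached the lowest negative one, and negative library 2 stood highest of all. For Dnajc9 the difference on the log2 scale was -0.96 (SE 0.33, limma adjusted p = 0.201, and 0.00982 with the block), -1.27 within pools 1 and 2 (adjusted p = 0.0317) and -0.65 within pools 3 and 4. Without pool 1 the blocked adjusted p was 0.0551. After scaling to core T cell genes Dnajc9 and Dnaja4 stood at 0.04 and 0.02. Without that scaling the core T cell genes had a median of -0.97. The part of their shift in the Dnajc9 and Dnaja4 values was not tested. Groups that did not overlap with positive lower were found for 3 members (Dnajc9, Dnaja4 and Dnajc1; 4.62%), beside 4.15% of all genes, and with positive higher for 0 members, beside 4.61%.

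Among class B J-proteins 9 of 10 lay below 0 (8 after quantile normalization, 0 with core T cell scaling), with none called. Dnajb1, the partner of inducible Hsp70 and itself a target of HSF1, was at 65.6, 81.0, 77.9 and 50.3 RPKM in negative and 47.3, 53.1, 48.6 and 45.9 RPKM in positive libraries. It was lower in all 4 pools (-0.47, SE 0.32), opposite in sign to Hspa1a and Hspa1b in the same libraries. Dnajb6, which keeps polyglutamine proteins soluble and whose promoter holds the heat shock element, was at 53.3, 62.0, 52.9 and 34.5 and 41.3, 44.5, 41.8 and 27.6 RPKM and was likewise lower in all 4 pools (-0.37). Dnajb2, Dnajb4 and Dnajb11 were also lower in every pool, Dnajb5 and Dnajb12 in 3 and Dnajb13 in 2, with log2 fold changes from -0.48 to -0.21.

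Class C J-proteins share only the J-domain and serve many places in the cell. Dnajc15 (MCJ), a mitochondrial inner membrane protein known as a brake on respiration in CD8 T cells, had the highest mean RPKM of all members. It was at 387, 484, 1112 and 1221 RPKM in negative and 306, 177, 1204 and 1199.7 RPKM in positive libraries of pools 1 to 4. The pools parted it more than the groups did, and only in pool 2 was the positive library far lower (-1.44 on the log2 scale). Its log2 fold change was -0.42 (SE 0.70), and 0.10 without positive library 2. Dnajc19, a part of the mitochondrial import motor, was at 20.4, 35.4, 45.3 and 61.3 and 16.3, 15.8, 66.3 and 63.3 RPKM, with differences of -0.31, -1.11, 0.54 and 0.04 in pools 1 to 4. Dnajc8, a splicing-associated J-protein, was at 257 ± 99.7 RPKM in negative and 243 ± 26.1 RPKM in positive libraries (SD, n = 4 each), with a log2 fold change of -0.00474 (SE 0.40). Dnajc7 (Tpr2), which hands clients between Hsp70 and Hsp90, was at 118, 139, 115 and 59.6 and 105, 97.2, 64.5 and 42.5 RPKM, lower in all 4 pools (-0.50, limma adjusted p = 0.802, and 0.21 with the block).

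Some class C members differed most in pool 2. Dnajc13, an endosomal protein, was at 9.63, 2.06, 3.01 and 5.30 RPKM in negative and 8.21, 12.6, 3.35 and 3.27 RPKM in positive libraries, and its difference was 2.15 in pool 2 and between -0.56 and 0.12 in the others. Dnajc16 had differences of 0.29, 1.63, -0.16 and -0.91 in pools 1 to 4. Dnajc5, the cysteine string protein of secretory vesicles, had -0.76, 1.09, -0.05 and 0.46. Pool 2 gave the largest difference, up or down, for these 3 genes, for Hspa1a and Hspa1b and for Dnajc15. Over the 25 class C genes 19 lay below 0, the median was -0.21, and 6 were lower in all 4 pools. The rest of them, Dnajc2, Dnajc4, Dnajc6, Dnajc11, Dnajc12, Dnajc14, Dnajc17, Dnajc18, Dnajc21, Dnajc24, Dnajc25, Dnajc27, Dnajc28 and Dnajc30, had log2 fold changes from -0.50 (Dnajc21) to 0.20 (Dnajc28), with none called.

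Small heat shock proteins were scarce. Hspb6 was at 2.23, 1.57, 3.08 and 5.24 RPKM in negative and 4.90, 2.21, 3.58 and 3.52 RPKM in positive libraries (0.22, SE 0.36). Hspb11, a subunit of the intraflagellar transport complex rather than a chaperone, was at 2.02, 7.41, 10.1 and 8.89 and 2.88, 3.27, 13.1 and 11.1 RPKM, with a log2 fold change of 0.007 (SE 0.52) and a lower value in positive cells only in pool 2.

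Other genes of the folding machinery were taken from 3 lists. Of 39 co-chaperones and cofactors of Hsp70, Hsp90 and TRiC, limma called none without the block, beside 3.03% of all genes higher and 0.268% lower. With the block it called none either, beside 7.22% and 3.85%. At an unadjusted p under 0.05 without the block there were 0, beside 7.48% and 4.67%. Of the 39, 34 lay below 0, beside 61.2% of all genes, and the median was -0.30, beside -0.11 for all genes. With core T cell scaling that median was 0.70, beside 0.89 for all genes. Of 11 heat shock regulators and stress ubiquitin genes none was called without the block, beside 0.268% of all genes lower. At an unadjusted p under 0.05 without it 2 were lower, beside 4.67% of all genes. With the block 2 were called lower, beside 3.85% of all genes. These were Cirbp, a cold-inducible RNA-binding protein gene, at -0.88 and Dedd2 at -0.74. Both lay above 0 with core T cell scaling, at 0.12 and 0.26. Dedd2 lost the call with any 1 pool left out and Cirbp with 2 of the 4. Hsf1 itself, the master regulator, was at 34.0, 26.4, 20.8 and 13.0 RPKM in negative and 20.3, 23.9, 12.9 and 13.3 RPKM in positive libraries (-0.37, SE 0.36). Bag3, a co-chaperone and HSF1 target chosen after seeing its values, was at 7.67, 5.52, 4.92 and 7.44 and 7.80, 7.38, 3.73 and 5.30 RPKM (-0.09), with no call.

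In the list of ER folding and the unfolded protein response, 24 of 31 genes lay above 0 with a median of 0.45, and 12 were higher in the positive library of all 4 pools, beside 10.3% of all genes. Limma called 1 of the 31 higher without the block, beside 3.03% of all genes, and 3 with it, beside 7.22%, and none lower. Without the block, 9 were called higher with core T cell scaling and 0 with median ratio scaling. Herpud1, which helps remove misfolded proteins from the ER, was at 65.4, 90.0, 56.4 and 41.6 RPKM in negative and 205, 355, 156 and 148 RPKM in positive libraries of pools 1 to 4, each positive library above each negative one. The log2 fold change of Herpud1 was 1.71 (SE 0.41, limma adjusted p = 0.0433, and 2.06e-05 with the block), and without the block it stayed called in 1 of the 8 fits that each left out a library, with adjusted p up to 0.161, and it was not called with median ratio scaling (adjusted p = 0.07). Sdf2l1, a partner of BiP and Dnajb11, was at 38.5, 69.3, 66.7 and 34.5 and 65.1, 142, 158 and 135 RPKM (1.23, limma adjusted p = 0.179, and 0.00143 with the block). Fkbp2, an ER prolyl isomerase, was at 25.3, 51.5, 106 and 120.0 and 55.2, 59.7, 309 and 349 RPKM (1.09, limma adjusted p = 0.663, and 0.00662 with the block, a call kept in 2 of the 4 fits that left out a pool). Ddit3 (CHOP), the death-associated factor of this response, chosen after seeing its values, was lower in 3 of 4 pools (-0.59) without a call. The sums of dendritic cell and macrophage markers, and of the B lineage list the genes Jchain and Mzb1, were higher in the same positive libraries, and their part in these ER values was not tested.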

How the data were processed

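RNA of 8 sorted populations was sequenced after SMART-seq v4 amplification and NexteraXT library construction, per the labels' protocols. The authors deposited RPKM values per gene with exon lengths, per the file headers. The submitters' processing notes name TopHat2 and mm9. Read assignment and use of strand are not given in the sources used here.

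Limma 3.58.1 (R 4.3.3, lmFit and eBayes with trend, two-sided) was fitted to log2(RPKM + 1) with group alone as a term. The fit took in 11946 of 13204 genes, those reaching 1 RPKM in 4 libraries or more, and p-values were adjusted over them by Benjamini-Hochberg at 0.05. Fold changes on this scale understate those of low genes. Same-numbered libraries came from the same pool per the series design text, and their deviations from the group means had correlations of 0.70, 0.41, 0.56 and 0.68 in pools 1 to 4. The fit with the pool as replicate block is therefore given where it changes a call. In each library 100% of the low values checked were whole reads within 0.1 reads, which gave the depth. P-values of the fit with group alone measure the spread between pools of mice within a group. Those of the blocked fit measure how far the difference within a pool varied from pool to pool. The fit was tested on simulated data.

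Members, families and lists were chosen with earlier results of these data known. Genes named by rule were the members called in either fit, the most abundant tested member of each family, the TRiC subunits by their ranges, the 3 members with the largest log2 fold change in each direction, and up to 6 called genes of each folding list. All others were named after their values were seen. Alternatives were the block, a pseudocount of 0.1, no filter, 3 other scalings, pools 1 and 2 or 3 and 4 alone, and each library left out. Leaving out a pool in the blocked fit was added after seeing the data.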

Additional observations from a re-analysis of the deposited data

Results flagged for a closer look

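Among the 132 groups of 4 libraries checked, 2 held a library far from the other 3 by Dixon's criterion, where chance flags about 1 in 20 groups. Dnajb6 was at 27.6 RPKM in positive replicate 4, below 41.3 to 44.5 RPKM in the other positive libraries. Dnajc1 was at 2.46 RPKM in positive replicate 1, below 3.88 to 4.20 RPKM in the other positive libraries.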

How the results depend on the processing

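With the replicate block, which pairs libraries by pool, 2 members were called higher and 2 lower, 863 of all genes higher and 460 lower, 2 heat shock regulators lower and 3 ER genes higher. With the block and any 1 pool left out (chosen after seeing the data), 2 to 3 members were higher and 0 to 2 lower, with 0 lower without pool 1. Leaving out single libraries gave 0 to 2 members higher, 0 lower in every case, a member median of -0.36 to -0.18, 178 to 503 of all genes higher and 5 to 45 lower, and 0 to 1 ER genes higher. The member median was -0.36 without negative replicate 4. Scaling to core T cell genes gave 3 members higher, a median of 0.74, 1201 genes higher, 0 lower, and 9 ER genes higher. That scaling reversed Cct5 (0.59), Dnaja1 (0.57), Dnaja4 (0.019), Dnajb1 (0.53), Dnajc1 (0.18), Dnajc15 (0.58), Dnajc9 (0.037), Hsp90ab1 (0.84) and Hspa4 (0.83) on the log2 scale. Median ratio scaling gave 19 genes lower and 0 ER genes higher, and quantiles 59 genes lower. Pools 1 and 2 alone gave 2 members higher and 1 lower, 875 genes higher and 142 lower, and pools 3 and 4 alone 11 genes lower.

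Hspb11 and Hspe1, near 0 with all libraries, and Dnajc15 changed sign. Dnajc15, at -0.42 (SE 0.70) with all libraries, was at 0.045 in pools 3 and 4 alone. With a library left out it was from -0.82 to 0.10. Hspb11 was at -0.013 with quantiles, -0.31 in pools 1 and 2, and from -0.42 to 0.31 with a library left out, with -0.11, -0.11 and -0.089 without pools 1, 3 and 4 in the blocked fit. Hspe1 was at -0.00063 with a pseudocount of 0.1, -0.11 with quantiles, -0.67 in pools 1 and 2, and from -0.49 to 0.50 with a library left out, with -0.31 and -0.13 without pools 3 and 4 in the blocked fit. The causes were not tested. With 4 pools and 3060000 reads in the shallowest library, low members are measured with the least precision.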
